A study of Homo sapiens with 4 samples.

Results

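The 8 snoRNA host genes described here are GAS5, SNHG1, SNHG5, SNHG6, SNHG7, SNHG8, SNHG12 and SNHG15. They were chosen by symbol as noncoding genes that carry small nucleolar RNAs (snoRNAs) in their introns, and they are 8 of 23284 gene symbols in a table of 24934 rows. Each of the 8 stood on 1 row. The values come from HEK-293, an established human embryonic kidney cell line, transfected for 48 h with 10 nM of siRNA, after which RNA was made into 4 mRNA libraries, 1 for each siRNA. ZSCAN5A SiRNA #4 (si4) and ZSCAN5A SiRNA #5 (si5) both targeted ZSCAN5A, a zinc finger gene, ZSCAN5B SiRNA #1 (si1) was designed against its relative ZSCAN5B, and a scrambled siRNA served as the control. All 4 cultures therefore carried a transfected siRNA, and both comparisons below use the same control library. The unit throughout is FPKM, the fragments of a gene scaled to transcript length and to the mapped fragments of the library, which is a level per length.

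ZSCAN5A was at 30.2% of its control FPKM with si4 and at 29.5% with si5, and at 105% in the library made with si1. ZSCAN5B rested on only 15 fragments in the control and 16 with si1 (ratio 1.05, exact 95% interval 0.486 to 2.28, counting error only). No lowering of ZSCAN5B was seen with si1, and a level below 0.486 times the control lies outside that interval. A smaller lowering would not be detectable at this depth. The si1 library is called the library labelled ZSCAN5B knockdown here. ZSCAN5B had 6 fragments with si4 (ratio 0.366, interval 0.116 to 0.999) and 17 with si5 (0.734, 0.345 to 1.58). The 8 markers of HEK-293 that were looked up, VIM, CDH2, KRT8, KRT18, NEFL, NEFM, LHX1 and PAX2, were detected in every library, and 8 markers of blood, endothelium, liver, germ line and muscle were at most 0.553 FPKM. Depth, estimated from the steps between the lowest FPKM values, was 1.09 times the control for si4, 1.54 times for si5 and 1.02 times for si1. In bulk RNA, a change in the number of cells that express a gene and a change in RNA per cell cannot be told apart.

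A snoRNA host gene is transcribed and spliced like a protein-coding gene, and its product is largely the intron. After splicing, the snoRNA is trimmed out of the debranched intron and packed into a ribonucleoprotein, where box C/D snoRNAs guide ribose methylation and box H/ACA snoRNAs guide pseudouridylation, mostly of ribosomal RNA. The joined exons form a polyadenylated RNA with no long reading frame. In several of these genes, GAS5 being the best known, that RNA is loaded on ribosomes and removed by nonsense-mediated decay (NMD), so its level depends on transcription, on growth and translation, and on decay. Many hosts of snoRNAs, GAS5 and the ribosomal protein genes among them, begin their transcripts with a run of pyrimidines, the 5′ terminal oligopyrimidine tract (5′TOP).

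The 8 genes differed in structure. In the reference annotation, GAS5 (chr1:173833039-173837125, minus strand, GRCh37) and SNHG1 (chr11:62619460-62623360, minus strand) had 12 exons each and held 10 and 8 snoRNAs of the table, all of box C/D. SNHG5 (chr6:86386725-86388451, minus strand) had 4 exons and 2 box C/D snoRNAs, and SNHG6 had 4 exons and 1. SNHG12 (chr1:28905050-28908366, minus strand) had 5 exons and held 3 box H/ACA snoRNAs and 1 of box C/D. SNHG7 (chr9:139619046-139622636, minus strand, 5 exons) held 2 box H/ACA snoRNAs, while SNHG8 (chr4:119199917-119200978, plus strand, 4 exons) and SNHG15 (chr7:45022627-45026259, minus strand, 4 exons) held 1 each. Structure was read from 1 annotated transcript per host, the one whose ends lay nearest to those in the table. In it, 28 of the 29 snoRNA rows lay wholly inside an intron, and SNORA44 touched exon 2 of SNHG12. Other annotated transcripts can hold such a row in an exon, from 0 of 19 SNHG12 transcripts for SNORD99 to 28 of 80 SNHG1 transcripts for SNORD29. The spliced RNA was between 460 bases (SNHG6) and 1124 bases (SNHG15) long, which is between 12.7% of the locus in SNHG6 and 54.8% in SNHG5.

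The bases around the start of each host are shown because a 5′TOP, where present, would be a pyrimidine run at the start of the transcript. Each line covers the 20 bases before the start of the gene as the table gives it and the 40 bases from it, read on the transcribed strand of GRCh37, and capitals mark the longest unbroken run of at least 5 C or T that reaches within 5 bases of that start. SNHG15 has no such run and is shown without capitals.
GAS5: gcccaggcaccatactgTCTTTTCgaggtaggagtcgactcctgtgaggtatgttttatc
SNHG1: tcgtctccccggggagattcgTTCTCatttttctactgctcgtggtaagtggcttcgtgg
SNHG5: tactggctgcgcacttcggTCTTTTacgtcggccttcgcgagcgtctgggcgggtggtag
SNHG7: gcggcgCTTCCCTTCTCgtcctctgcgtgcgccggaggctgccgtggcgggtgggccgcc
SNHG8: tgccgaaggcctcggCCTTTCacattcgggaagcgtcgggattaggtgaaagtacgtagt
SNHG12: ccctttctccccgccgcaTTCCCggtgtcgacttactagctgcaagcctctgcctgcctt
SNHG15: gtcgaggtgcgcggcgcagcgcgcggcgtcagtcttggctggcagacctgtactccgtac

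A run of at least 5 pyrimidines near the start was present in 7 of the 8 hosts, including SNHG6, which lies on chromosome 8 and whose sequence is not shown, and in 29.1% of 11153 other rows of the table searched in the same way. The run spans the annotated start in 5 hosts, GAS5, SNHG5, SNHG6, SNHG8 and SNHG12. It lies wholly before the start in SNHG7 and wholly after it in SNHG1. A match is only a description of these letters, since the start in the table need not be the base at which transcription begins in HEK-293 cells.

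The snoRNAs themselves were nearly invisible in these libraries, although their hosts were among the well-expressed genes. Of the 29 hosted snoRNA rows, 22 were listed at 0 in all 4 libraries, among them all 10 snoRNAs of GAS5 and both of SNHG5. By class, 21 of the 22 box C/D rows and 1 of the 7 box H/ACA rows were at 0 throughout. Values below 0.001 FPKM were counted as 0. The box C/D rows at 0 were between 43 and 81 bases long, while the 7 rows that were listed above 0 in some library were between 126 and 134 bases, and the reads were made with 101 sequencing cycles. Over the whole table, where only values of exactly 0 were counted, 264 of 270 SNORD rows under 100 bases were at 0 in every library. Of such rows of 100 bases or more, 8 of 22 were. The part that row length, the mRNA selection of the libraries or the FPKM estimation has in these zeros was not tested, and a row listed at 0 is not evidence that the snoRNA is absent from the cells.

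**Figure D1:**
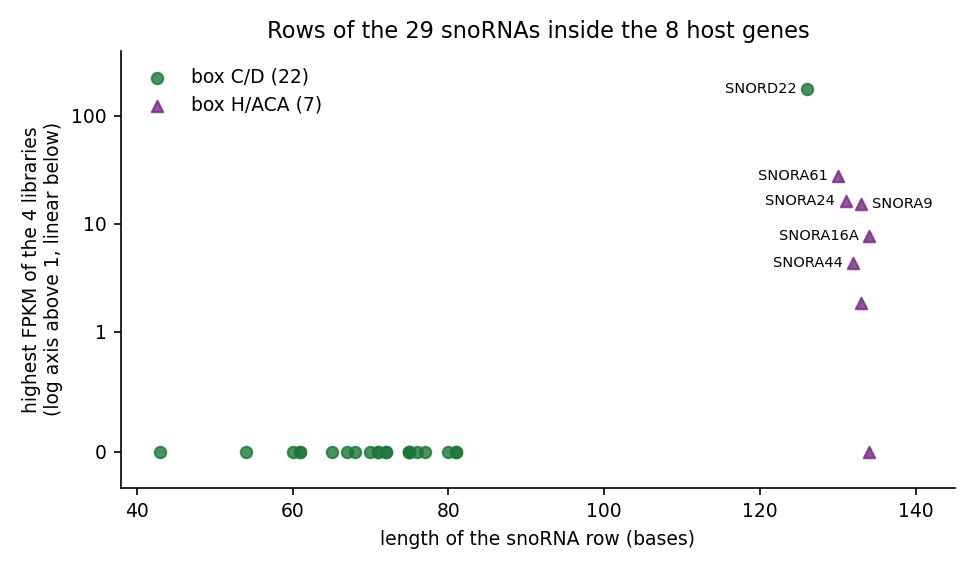
Length of each of the 29 hosted snoRNA rows in bases (x axis) against its highest FPKM in the 4 libraries (y axis, logarithmic above 1 and linear below); circles are box C/D and triangles box H/ACA snoRNAs. The 21 box C/D rows of 43 to 81 bases all lie at 0, and SNORD22, at 126 bases, is the highest point. FPKM of such short rows cannot be set beside that of the hosts.

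Short and long rows are shown side by side, with capitals marking the C box (TGATGA) and D box (CTGA) of box C/D snoRNAs or the ACA that stands 3 bases before the end of a box H/ACA snoRNA, searched on the snoRNA strand only. SNORD44 (intron 5 of GAS5, chr1:173835106-173835166) and SNORD50A (intron 3 of SNHG5, chr6:86387012-86387086) are short rows listed at 0 throughout. SNORD22 (intron 9 of SNHG1, chr11:62620382-62620507) and SNORA24 (intron 2 of SNHG8, chr4:119200345-119200475) are long rows with values. The exact TGATGA, searched near the 5′ end only, was found in 14 of the 22 box C/D rows. It was not found in SNORD22, where only the D box is marked. All 7 box H/ACA rows are long and 21 of the 22 box C/D rows are short, so class and length cannot be told apart among the hosted rows. The SNORD rows of the whole table, given above, differed by length within their class. Of those under 100 bases 97.8% were at 0 in every library, against 36.4% of the longer ones.
SNORD44: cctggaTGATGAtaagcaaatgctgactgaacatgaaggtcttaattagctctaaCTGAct
SNORD50A: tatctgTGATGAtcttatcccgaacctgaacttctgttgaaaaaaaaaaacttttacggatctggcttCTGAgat
SNORD22: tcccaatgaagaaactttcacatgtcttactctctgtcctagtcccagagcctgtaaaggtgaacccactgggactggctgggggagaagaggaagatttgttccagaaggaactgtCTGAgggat
SNORA24: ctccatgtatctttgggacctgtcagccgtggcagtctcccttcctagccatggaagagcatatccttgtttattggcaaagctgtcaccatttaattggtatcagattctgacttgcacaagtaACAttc

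SNORD22 was the highest of the hosted snoRNA rows, at 175.5 FPKM with si4, 102.8 with si5, 150.9 in the library labelled ZSCAN5B knockdown and 136.9 in the control. Those values rested on 35, 29, 28 and 25 fragments, the smallest whole numbers in the proportions of the 4 values. Against the control the ratio was 1.28 with si4 (exact 95% interval 0.746 to 2.24, counting error only), 0.751 with si5 (0.425 to 1.34) and 1.10 in the library labelled ZSCAN5B knockdown (0.620 to 1.97), so a difference was not detectable at this depth. The row overlaps an exon in 22 of 80 annotated SNHG1 transcripts, and fragments of retained host RNA and of the snoRNA cannot be told apart. The box H/ACA rows rested on fewer fragments still. SNORA24 had 4 fragments with si4, 2 with si5, 2 in the library labelled ZSCAN5B knockdown and 1 in the control. SNORA61, in an intron of SNHG12, had 5, 5, 6 and 2 in the same order, and SNORA9, in an intron of SNHG15, had 4, 3, 3 and 2. With 3 or fewer fragments in the control, no fold change is given for these. SNORA16A was listed above 0 only with si5 (7.72 FPKM, 1 fragment) and SNORA44 only in the control (4.29 FPKM, 1 fragment). The FPKM of such short rows cannot be set beside that of the hosts. In the control, SNORD22 was at 136.9 FPKM on 25 fragments, and its host SNHG1 at 60.7 FPKM on about 2923. Their lengths of 126 and 897 bases do not account for that difference. SNORA17, in an intron of SNHG7, was at 1.24 FPKM with si5, 1.62 in the library labelled ZSCAN5B knockdown and 1.84 in the control, and at 0 with si4.

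The spliced host RNAs were abundant, and their order was nearly the same in every library. SNHG5 was the highest of the 8, SNHG8 came next and then GAS5, and SNHG12 was the lowest, in all 4 libraries. The sum over the 8 genes was 1351 FPKM with si4, 1233 with si5, 1212 in the library labelled ZSCAN5B knockdown and 1031 in the control, and SNHG5 with SNHG8 made up between 57.1% and 59.9% of it. The FPKM total over all genes was also lowest in the control. Of that total, the 8 genes made up 0.247%, 0.228%, 0.226% and 0.211% in the same order. SNHG5 stood above 99.0% of the genes listed above 0 in the control, and SNHG12 above 71.3% of them.

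**Figure D2:**
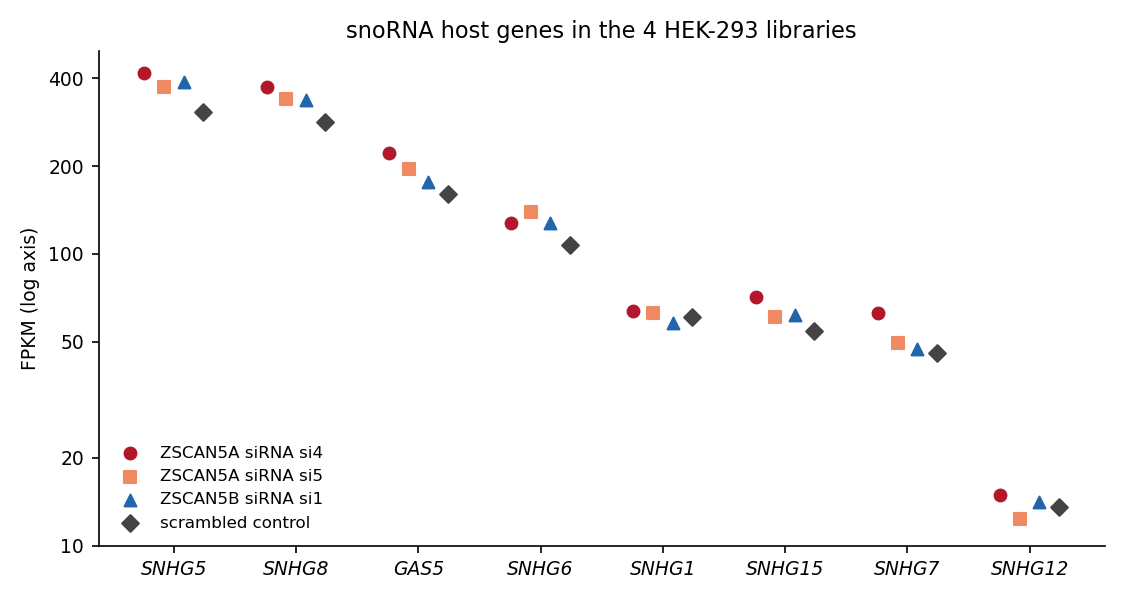
FPKM of the 8 snoRNA host genes (x axis, ordered by control level) in each of the 4 libraries (y axis, logarithmic); each point is 1 library. SNHG5 and SNHG8 lie between 282 and 417 FPKM, SNHG12 lies between 12.4 and 14.9, and the control point is the lowest of the 4 in 6 of the 8 genes.

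SNHG5, host of SNORD50A and SNORD50B, was at 416.7 FPKM with si4, 374.1 with si5, 388.5 in the library labelled ZSCAN5B knockdown and 306.3 in the control. SNHG8, host of SNORA24, was at 372.1 with si4, 339.1 with si5, 337.1 in the library labelled ZSCAN5B knockdown and 282.1 in the control. The control was the lowest library for both genes, and the 3 siRNA libraries lay close together above it. The ranges of the 2 genes overlapped across libraries, but SNHG5 was the higher in each of the 4, by 1.09-fold in the control.

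GAS5, first found as a transcript that accumulates in growth-arrested cells, was at 221.8 FPKM with si4, 195.4 with si5, 176.8 in the library labelled ZSCAN5B knockdown and 160.9 in the control. SNHG6, host of SNORD87, was at 128.0 with si4, 138.9 with si5, 127.9 in the library labelled ZSCAN5B knockdown and 107.1 in the control. Both were lowest in the control, and SNHG6 was the only member highest with si5. Neither range met that of its neighbours in the order of levels, since SNHG8 was 1.75-fold above GAS5 and SNHG6 was 1.77-fold above SNHG1 in the control.

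SNHG15, host of SNORA9, was at 71.0 FPKM with si4, 60.5 with si5, 61.9 in the library labelled ZSCAN5B knockdown and 54.3 in the control. SNHG7, host of SNORA17 and SNORA43, was at 62.8 with si4, 49.5 with si5, 47.3 in the library labelled ZSCAN5B knockdown and 45.9 in the control. Both stood highest with si4, and for SNHG7 the other 3 libraries lay between 45.9 and 49.5 FPKM. SNHG1, the host of 8 box C/D snoRNAs, was at 63.5 with si4, 62.6 with si5, 58.0 in the library labelled ZSCAN5B knockdown and 60.7 in the control. It was the flattest of the 8, and its range overlapped that of SNHG15, which was above SNHG1 in 2 of the 4 libraries. SNHG12, host of SNORA16A, SNORA44, SNORA61 and SNORD99, was at 14.9 with si4, 12.4 with si5, 14.1 in the library labelled ZSCAN5B knockdown and 13.6 in the control, so the control lay inside the range of the siRNA libraries. The SNHG7 row shares 125 bases with the row of FAM69B, which was itself at 36.8 FPKM in the control and 45.2 with si4, and reads in that stretch cannot be assigned to either gene from the table. GAS5 shares 41 bases with LOC100506046, which was at most 2.39 FPKM, SNHG6 shares 119 with C8orf45, at most 0.320 FPKM, and SNHG12 shares 8 with TRNAU1AP.

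The comparison of the ZSCAN5A siRNAs with the scrambled control asks which RNAs differed when ZSCAN5A was lowered. In the study's qRT-PCR, the related gene ZSCAN5D was also lower with si4 and with si5, so the comparison is not of ZSCAN5A alone. All 8 host genes had a higher mean of si4 and si5 than the control, against 46.8% of 12947 genes, and for 7 of the 8 each of si4 and si5 was above the control, against 34.7% of 12937 genes. Highly expressed genes as a whole were also mostly higher. Of 1928 genes with a mean of at least 40 FPKM, where 7 of the 8 members lie, 77.6% were higher than the control and 20.9% were at least 1.2-fold higher. The differences were small. No member passed 1.5-fold, a limit passed by 3.8% of all genes in either direction, while 6 of the 8 were at least 1.2-fold higher, against 9.14% of all genes. More than 25% higher were 3 of the 8, against 5.14% of all genes. The median log2 ratio over the 8 was 0.30, and over all genes it was -0.02.

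GAS5 was highest relative to the control, by 29.7%, with a mean of 209 ± 18.7 FPKM (SD, n = 2) against 161 in the control. SNHG5 was 29.1% higher at 395 ± 30.1 FPKM (SD, n = 2), SNHG8 26.0% at 356 ± 23.4 and SNHG6 24.6% at 133 ± 7.71. For these 4 genes, the gap between the mean and the control was more than the gap between si4 and si5. SNHG7 was 22.3% higher at 56.1 ± 9.41 FPKM (SD, n = 2), and there the gap between si4 and si5 was the wider, while SNHG15 was 21.1% higher at 65.8 ± 7.40 with gaps of about the same size. SNHG1 was 3.90% higher at 63.1 ± 0.597 FPKM and SNHG12 0.481% higher at 13.6 ± 1.79.

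The siRNAs against ZSCAN5A gave different values for these genes, with 1 library each. The median log2 ratio was 0.39 with si4 and 0.21 with si5, and 7 of the 8 members were higher with si4 than with si5, against 54.3% of all genes. SNHG7 differed most, with a log2 ratio to the control of 0.45 with si4 and 0.11 with si5. SNHG6 went the other way, with 0.26 and 0.37, and SNHG12 was on both sides of the control, with 0.14 and -0.13. The si4 library was the highest of the 4 for 7 of the 8 members, against 25.7% of all genes, and the control was the lowest for 6 of the 8, against 30.1%. These shares are over all genes, and none was computed among genes of like level.

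**Figure D3:**
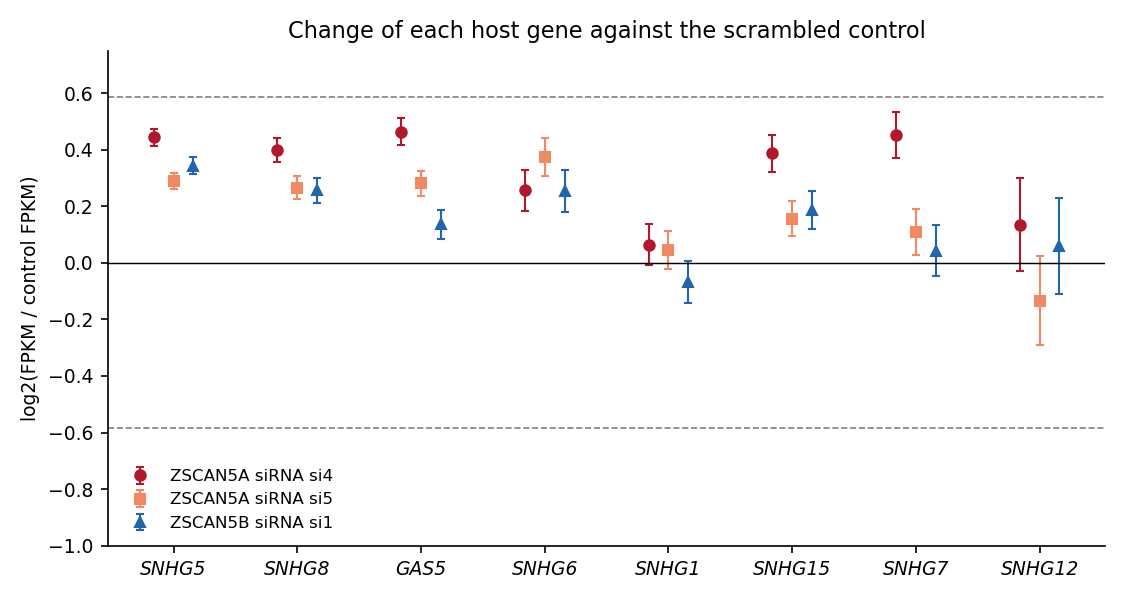
log2 ratio of FPKM to the scrambled control (y axis) for each host gene and siRNA library; bars are approximate 95% counting intervals from the estimated fragments, not replicate error, and dashed lines mark 1.5-fold. All points lie inside the dashed lines, si4 is the highest point for 7 of the 8 genes, and the bars of SNHG1 and SNHG12 reach 0 for every siRNA.

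Counting error was smaller than most of these differences. The estimated number of fragments was between 1944 and 29378 for 7 members and between 549 and 773 for SNHG12, which gives an approximate 95% counting interval on the log2 ratio of at most ± 0.090 for the 7 and at most ± 0.17 for SNHG12. The fragment numbers are rough, since they use the annotated spliced length, and the intervals leave out the variation between cultures. The SNHG1 and SNHG12 ratios lay within their counting interval of 0 for each of the 3 siRNAs, as did that of SNHG7 in the library labelled ZSCAN5B knockdown.

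With limma on log2(FPKM + 1) over 13035 genes, with si4 and si5 as a group, no member passed an adjusted p of 0.05, and 0.0767% of all genes did. The lowest adjusted p among the members was 0.38, shared by GAS5, SNHG5, SNHG6 and SNHG8. Their log2 differences in that fit were 0.37 ± 0.11 (SE), 0.37 ± 0.097, 0.31 ± 0.099 and 0.33 ± 0.092. At an unadjusted p of 0.05 the fit called these 4 of the 8, against 12.7% of all genes. These 4 genes stood above 40 FPKM, a level at which 77.6% of genes were higher than the control. No share among genes of that level was computed for the fit. The fit takes its spread from si4 and si5 alone and assumes that the lone control would vary as they do.

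Set against the control, the library labelled ZSCAN5B knockdown had higher values for 7 of the 8 host genes, against 48.5% of 12877 genes. No member passed 1.5-fold, against 4% of all genes. SNHG5 alone was at least 1.2-fold higher, against 11.1%, and it alone was more than 25% higher, against 6.7%. Of 1927 genes with a mean of at least 40 FPKM, 76.7% were higher than the control and 24.2% at least 1.2-fold higher, which is more than 1 in 8. The median log2 ratio over the 8 was 0.16, and over all genes it was -0.01. SNHG5 was 26.8% higher than the control, SNHG8 19.5% and SNHG6 19.4%. SNHG15 was 13.9% higher, GAS5 9.87%, SNHG12 4.23% and SNHG7 3.06%, and SNHG1 was at 0.955 times the control. The limma fit called 0 members there at an adjusted p of 0.05, against 0.0767% of all genes, and 1 of 8 at an unadjusted p of 0.05, against 10.6%. With 1 library on each side there is no replicate check. The mean of si4 and si5 was above the library labelled ZSCAN5B knockdown for 7 of the 8 members, against 46.3% of all genes, with a median log2 difference of 0.08. GAS5 and SNHG7 had the widest differences between the targets, 0.24 and 0.25, and SNHG5 one of the narrowest, 0.03.

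Level and length moved with these values. FPKM is scaled within each library, but its sum is not fixed. Over the table that sum was 488036 in the control and between 537181 and 546239 in the siRNA libraries. Genes with a mean of at least 40 FPKM had a median log2 ratio of 0.14 with the ZSCAN5A siRNAs and 0.15 in the library labelled ZSCAN5B knockdown, and 7 of the 8 members are in that range. When the median of genes of like level was subtracted, the median over the members went from 0.30 to 0.14 for ZSCAN5A and from 0.16 to 0.05 for the library labelled ZSCAN5B knockdown. For ZSCAN5A, 6 of the 8 members stayed above genes of like level, SNHG7 by 0.21, GAS5 by 0.17, SNHG5 by 0.16, SNHG15 by 0.14, SNHG8 by 0.13 and SNHG6 by 0.11 on the log2 scale. SNHG1 came out below them, at -0.08, and SNHG12 level with them, at -0.01. Subtracting the median of genes of like transcript length gave medians of 0.13 and -0.00017. In the library labelled ZSCAN5B knockdown, 4 members then lay above genes of like length and 4 below, from 0.21 for SNHG5 to -0.25 for SNHG1. The part of fragment size, RNA quality or library preparation in the link with level and length was not tested.

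**Figure D4:**
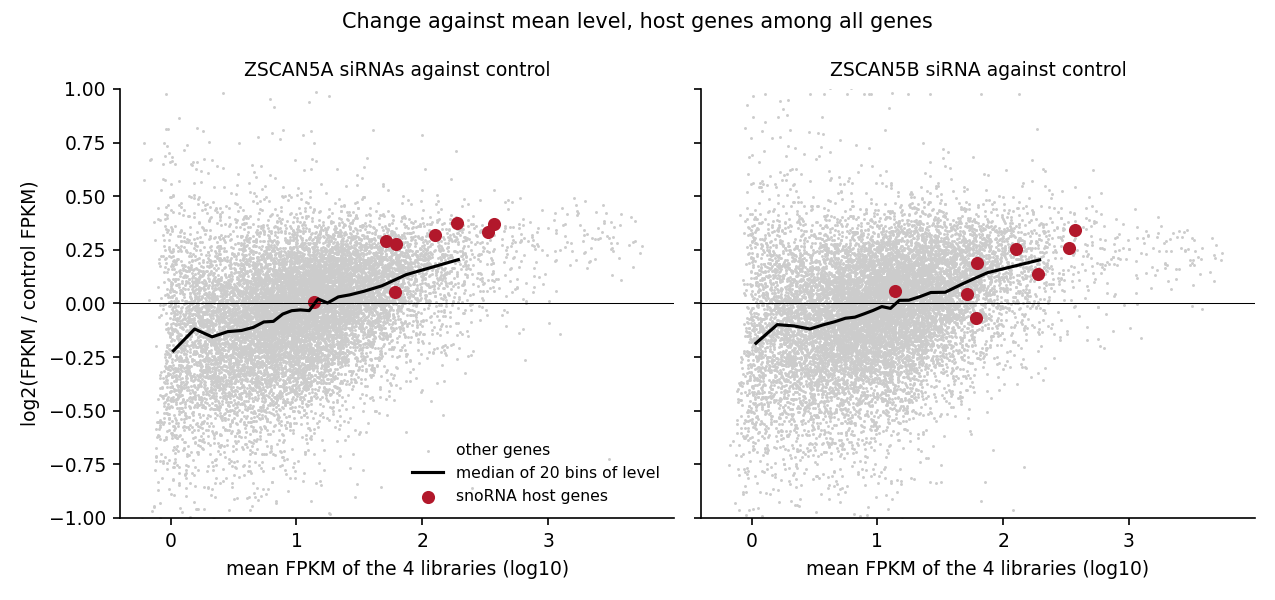
log2 ratio of FPKM to the control (y axis) against the mean FPKM of the 4 libraries on a log10 axis (x axis), for the ZSCAN5A siRNAs and for the library labelled ZSCAN5B knockdown; grey points are other genes, red points the 8 host genes and the black line the median of 20 bins of level. The line climbs with level, 6 of the 8 red points lie above it in the ZSCAN5A panel and 5 of 8 in the other, and genes beyond a log2 ratio of 1 in either direction are not drawn.

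Related genes give these values a setting. Of 10 other noncoding snoRNA hosts in the table, 9 met the expression limit. With the ZSCAN5A siRNAs, 7 of the 9 were higher than the control, with a median log2 ratio of 0.29, and 6 of the 9 were higher in the library labelled ZSCAN5B knockdown, with a median of 0.14. Over all genes 46.8% and 48.5% were higher, with medians of -0.02 and -0.01. Over genes of at least 40 FPKM, which 3 of the 10 are, 77.6% and 76.7% were higher, with medians of 0.14 and 0.15. C17orf76-AS1, which hosts several box C/D snoRNAs and is also known as SNHG29, was at 460.5 FPKM with si4, 407.1 with si5, 369.3 in the library labelled ZSCAN5B knockdown and 334.2 in the control. Its log2 ratios of 0.46, 0.28 and 0.14 were those of GAS5 to 2 decimals, and of 9063 genes with a mean of at least 5 FPKM it was the nearest to GAS5 in those 3 ratios. The nearest genes of the other 7 members, such as ZNF146 for SNHG5 and ANKRD32 for SNHG8, were on none of the lists used here. C6orf48 (the sum of 5 rows), EPB41L4A-AS1 and SNHG4 had log2 ratios of 0.31, 0.32 and 0.35 for ZSCAN5A and of 0.01, -0.08 and 0.36 in the library labelled ZSCAN5B knockdown.

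The 44 protein-coding hosts, most of them genes of ribosomal proteins and translation factors that also carry intronic snoRNAs, were also slightly higher on the whole. With the ZSCAN5A siRNAs 42 of 44 were higher than the control, with a median log2 ratio of 0.26, and 40 of 44 were higher in the library labelled ZSCAN5B knockdown, with a median of 0.17. Of the 44, 40 had a mean of at least 40 FPKM, a level at which 77.6% and 76.7% of all genes were higher, with medians of 0.14 and 0.15. RPSA, a protein of the small ribosomal subunit, was at 1403 FPKM with si4, 1445 with si5, 1293 in the library labelled ZSCAN5B knockdown and 1047 in the control. RPS2, of the same subunit, had a log2 ratio of 0.39 for ZSCAN5A and of 0.21 in the library labelled ZSCAN5B knockdown. RPL21 was the only one past 1.5-fold, at 93.0 FPKM with si4, 154.9 with si5, 75.2 in the library labelled ZSCAN5B knockdown and 71.9 in the control. That value rests on si5, and RPL21 has many near-identical pseudogenes among which reads can be split, so it is uncertain.

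The proteins that pack the snoRNAs were mostly higher than the control as well. Of 14 snoRNP proteins, 12 were higher than the control in each comparison, with median log2 ratios of 0.17 for ZSCAN5A and 0.24 in the library labelled ZSCAN5B knockdown. Over all genes 46.8% and 48.5% were higher, and over genes of at least 40 FPKM, which 9 of the 14 are, 77.6% and 76.7%. FBL, the fibrillarin methyltransferase of box C/D particles, had log2 ratios of 0.35 and 0.26 in the 2 comparisons. NHP2, NOP10 and GAR1, core proteins of box H/ACA particles, had 0.35, 0.28 and 0.15 for ZSCAN5A and 0.37, 0.46 and 0.37 in the library labelled ZSCAN5B knockdown.

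The genes of the decay pathway stood close to the median of all genes. Of 18 NMD factors, 8 were higher and 10 lower with the ZSCAN5A siRNAs, with a median log2 ratio of -0.02, and 6 were higher and 12 lower in the library labelled ZSCAN5B knockdown, with a median of -0.05. CASC3, a protein of the exon junction complex, had log2 ratios of -0.41 and -0.44. DHX34, an RNA helicase of the pathway, had -0.21 and -0.28, whereas MAGOH, another exon junction protein, had 0.32 and 0.36. None of the 18 passed 1.5-fold, against 3.8% and 4% of all genes, so with 18 genes the count of 0 is near the background. Of 8 other transcripts known to be NMD-sensitive, 5 were higher with the ZSCAN5A siRNAs (median 0.04) and 2 in the library labelled ZSCAN5B knockdown (median -0.13). The stress response genes ATF4, DDIT3 and ATF3 had log2 ratios of 0.08, 0.21 and -0.18 for ZSCAN5A and of -0.17, -0.20 and -0.11 in the library labelled ZSCAN5B knockdown, and UPP1, uridine phosphorylase, had 0.41 and 0.40. Against all of these, the median over all genes was -0.02 and -0.01.

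**Figure D5:**
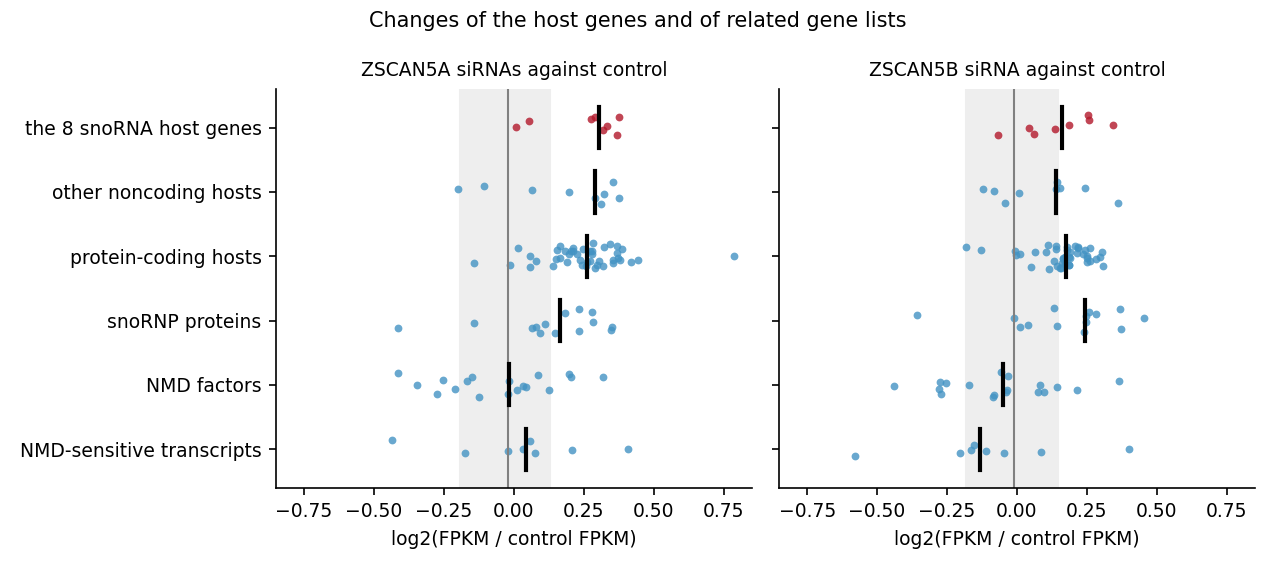
log2 ratio of FPKM to the control (x axis) for the 8 host genes and 5 related gene lists; each point is 1 gene, thick black bars are list medians, the grey line is the median of all genes and the grey band their middle 50%. The medians of the host genes (0.30 and 0.16) and of the protein-coding hosts (0.26 and 0.17) can be read beside the medians of all genes (-0.02 and -0.01) and of genes of at least 40 FPKM (0.14 and 0.15, not drawn), and those of the NMD factors were -0.02 and -0.05.

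Among the 10 genes nearest to the median profile of the 8 hosts, by the Euclidean distance over the 3 log2 ratios to the control among 9063 genes, were ALKBH4, ZNF638, TAF9B, PLEKHF1, ESRRA, RNF181, JAGN1, RAB8B and ITGB1BP1. The profile they were matched to had log2 ratios of 0.39 with si4, 0.21 with si5 and 0.16 in the library labelled ZSCAN5B knockdown. ALKBH4 was the nearest, with 0.38, 0.20 and 0.15, and a distance of 0.015. None of the 10 is on any of the lists above, and 3 ratios over shared control values are few to match on.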

How the data were processed

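RNA from 4 HEK-293 libraries (si4, si5, si1 and scrambled control) was analysed. The labels name a TruSeq stranded mRNA kit and the study's methods a KAPA stranded mRNA kit. According to the submitters' processing notes, the tools were CASAVA 1.8.2, Trimmomatic 0.30, TopHat2 2.1.0 and Cufflinks 2.2.1, with build hg19. The authors deposited 1 table of FPKM values per gene, with 0 other columns of per-sample values. Read counts were not used here. Rows that share a symbol were summed. Starts in the table count from 0 and are given here from 1.

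Ratios are FPKM over control FPKM without a pseudocount, for genes of at least 1 FPKM in a library of the comparison and above 0 on both sides. The main rule was more than 1.5-fold, with no test, since there is 1 library per siRNA, 1 control, and si4 and si5 share a target. limma 3.58.1 in R 4.3.3 on log2(FPKM + 1), with Benjamini-Hochberg adjustment over all genes, was an alternative. Others were median-ratio and upper-quartile scaling, pseudocounts of 0.1 and 1, other expression and fold limits, the highest row per symbol, each ZSCAN5A siRNA alone, and subtraction of the median of genes of like level in 20 bins. Subtraction for like length, and for like level and length, was added after seeing the data.

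Relative depth came from the commonest ratio between low FPKM values. Of 1587 genes below 0.1 FPKM in every library, 75.0% then had 4 values in the proportion of whole numbers up to 40, to within 0.05%. This puts the libraries at roughly 53700000 to 82900000 fragments. Exact intervals are Clopper-Pearson at 95%, and these and the floor of 3 fragments cover counting error only. Gene structure came from GENCODE lifted to GRCh37, which is the build of the table.

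Named genes were the 8 members, hosted snoRNAs of at least 1 FPKM in a library, up to 4 genes of each other list with the widest log2 ratio in either comparison among those of at least 5 FPKM, the 10 genes nearest in profile, and the targeted genes. Some genes that this rule names are not reported here. The members and lists were chosen with earlier results of these data known. Methods were tested on simulated data. Python 3.11.15 was used.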

Additional observations from a re-analysis of the deposited data

Results flagged for a closer look

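SNHG1 was the only host gene for which both ZSCAN5A libraries lay on one side of the control and the library labelled ZSCAN5B knockdown on the other. Its log2 ratios to the control were 0.06 with si4, 0.05 with si5 and -0.066 in the library labelled ZSCAN5B knockdown. The difference between the targets was not tested, and each of the 3 ratios was within its approximate counting interval of 0. No group held enough libraries to test for a sample that stands apart from the others of its group.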

How the results depend on the processing

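The count of members past 1.5-fold was 0 under both scalings, both pseudocounts, the other expression limits, the highest row per symbol, each ZSCAN5A siRNA alone, a 2-fold limit, limma, and all 3 subtractions, in both comparisons where run. With the lower fold limit, more than 25% higher, it was 3 for ZSCAN5A and 1 for the library labelled ZSCAN5B knockdown. The median for ZSCAN5A moved to 0.14, 0.13 and 0.11 when the median of genes of like level, of like length, and of like level and length was subtracted, and was between 0.21 (si5 alone) and 0.39 (si4 alone). For the library labelled ZSCAN5B knockdown it became -0.00017 with like length and -0.0015 with like level and length. Both scalings and both pseudocounts moved the medians by less than the spread between si4 and si5, 0.13, which also stands in for the unreplicated si1.

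Of single genes, 15 of 144 values changed sign. For ZSCAN5A, SNHG1 became -0.079, -0.14 and -0.14 and SNHG12 -0.014, -0.18 and -0.10 with like level, like length and both, and SNHG12 was -0.13 with si5 alone. For the library labelled ZSCAN5B knockdown, GAS5 became -0.067, -0.052 and -0.058 and SNHG7 -0.049, -0.14 and -0.15 in the same order, SNHG12 became -0.13 with like length and SNHG15 -0.0062 with both. The cause of these changes was not tested. No paired analysis was possible, because each siRNA has 1 library and no label pairs libraries across groups. With 1 control library, all ratios move together with its values, and depth limits SNHG12 and the snoRNA rows.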
